A study of Mus musculus with 9 samples.

Results

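Neurexins and neuroligins are the best known pair of adhesion molecules that meet across the synaptic cleft, and 5 of their genes are described here across 3 Sfpq genotypes of the embryonic mouse cortex: Nrxn2, Nrxn3, Nlgn1, Nlgn2 and Nlgn3. The members are taken by gene name, and make up 5 of 23494 named genes and 10 of 30978 transcripts in the expression tables. Each gene is represented by its RefSeq transcript with the highest mean level over all libraries, and its other transcripts are given beside it. Other genes of these families are not analysed here.

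The series asks how the nuclear RNA-binding protein Sfpq acts on long neuronal genes during transcription. Cerebral cortex was taken at E13.5 from homozygous Sfpq mutants (Sfpq-/-), heterozygous mutants (Sfpq+/-) and controls, with 3 libraries of each. All were on the mixed background that the labels write as C57BL/6+C57BL/6J+CBA. The labels describe the cells as neuronal stem cells and neurons, and ribosomal RNA was removed from total RNA, so that RNA with and without a poly(A) tail was read. The sources used here do not say what part of Sfpq the mutation removes, in which cells, or what the controls carry.

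Neurexins sit in the presynaptic membrane and bind neuroligins and several other ligands outside the cell, while their short tails bind cytoplasmic scaffolds. Each neurexin gene makes long alpha forms and shorter beta forms from separate promoters, and alternative exons change which ligands are bound. Neuroligins are postsynaptic: Nlgn1 is found mainly at excitatory synapses, Nlgn2 mainly at inhibitory synapses and Nlgn3 at both. At this stage the cortex holds dividing radial glia and newly formed neurons, and few synapses have formed.

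The genes differ greatly in length, which is the feature the paralogs are compared on. In RefSeq (GRCm38.p6), Nrxn3 on chromosome 12 spans 1612.2 kb and Nlgn1 on chromosome 3 spans 911.1 kb. Their paralogs are shorter: Nrxn2 on chromosome 19 spans 114.5 kb, Nlgn3 on the X chromosome 22.2 kb and Nlgn2 on chromosome 11 14.7 kb. Long therefore means here Nrxn3 and Nlgn1, although Nrxn2 also passes a limit of 100 kb.

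The deposited values are RPKM per transcript, and transcripts of a gene share exonic bases, so the sequences below show some of the exons by which the listed transcripts differ. The exons are in capitals, with 15 bases of the flanking exons in lower case, from GENCODE M21 transcripts (GRCm38). In Nlgn1, a coding exon of 60 bases is exon 4 of 8 in NM_138666 and absent from NM_001163387. In Nrxn2, a coding exon of 24 bases is exon 7 of 23 in NM_020253 and NM_001205234 and absent from NM_001205235. In Nrxn3, a coding exon of 27 bases is exon 8 of 20 in NM_172544 and absent from the short NM_001252074, and another of 27 bases, exon 13 of 20 in NM_172544, is absent from both other transcripts.
Nlgn1 exon 4: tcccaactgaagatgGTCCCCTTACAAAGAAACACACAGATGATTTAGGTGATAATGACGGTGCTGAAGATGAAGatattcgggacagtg
Nrxn2 exon 7: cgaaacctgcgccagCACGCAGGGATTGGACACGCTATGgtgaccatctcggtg
Nrxn3 exon 8: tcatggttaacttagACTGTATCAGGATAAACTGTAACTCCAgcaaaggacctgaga
Nrxn3 exon 13: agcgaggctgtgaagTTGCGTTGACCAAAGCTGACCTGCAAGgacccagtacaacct

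The 3 Nrxn3 transcripts are also annotated with different starts, which are shown because all 3 transcripts are compared below. Whether transcription begins at these places in this tissue was not tested, so the windows printed below are not shown to be promoters. The start of NM_172544 lies 158.9 kb, and that of NM_001252074 1018.0 kb, downstream of the start of NM_001198587. Each line gives the last 100 bases before the start in the RefSeq promoter table (GRCm38.p6, plus strand), with every CG in capitals. The window of NM_172544 starts from a RefSeq start 9 bases upstream of the GENCODE one.
Before NM_001198587, chr12:88794404-88794503: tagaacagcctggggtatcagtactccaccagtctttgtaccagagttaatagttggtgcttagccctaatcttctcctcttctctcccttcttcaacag
Before NM_172544, chr12:88953290-88953389: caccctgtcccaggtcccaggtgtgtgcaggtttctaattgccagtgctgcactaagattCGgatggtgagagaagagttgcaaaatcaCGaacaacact
Before NM_001252074, chr12:89812383-89812482: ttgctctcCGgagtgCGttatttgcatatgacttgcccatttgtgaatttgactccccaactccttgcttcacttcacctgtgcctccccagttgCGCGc
The pair CG, which reads the same on both strands, occurs 0 times in the first window, 2 times in the second and 4 times in the third. Of 32851 promoter windows of the same length, 62% hold at least 2 and 44.1% at least 4.

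Sfpq itself was low in the libraries labelled homozygous. Its transcript with the highest mean level, NR_045010, had 27.4 ± 1.24 RPKM in homozygous, 172 ± 11.5 RPKM in heterozygous and 201 ± 17.0 RPKM in control cortex (SD, n = 3 each). The homozygous level was 13.6% and the heterozygous level 85.6% of the control level. NR_045010 is a non-coding RefSeq record of the gene, and no coding Sfpq transcript is given here. With limma the log2 change was -2.85 ± 0.07 (SE) with an adjusted p of 1.3e-09 in homozygous cortex, and -0.22 ± 0.07 with an adjusted p of 0.709 in heterozygous cortex. Depth was estimated at 168 M to 203 M reads per library (M, 1e6). Marker genes of neurons and radial glia were expressed in every library, as the label of the tissue has it. Summed neuron markers spanned 713 to 899.7 RPKM in homozygous and 812 to 936 RPKM in control cortex, and summed radial glia markers 1928 to 2022 RPKM in homozygous and 2085 to 2274 RPKM in control cortex.

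The 2 long genes fell to 16.1% (Nlgn1) and 12.4% (Nrxn3) of their control level in homozygous cortex, and the 3 shorter ones showed no change that passed the test. Called lower were Nlgn1 and Nrxn3, so 2 of 5 members, and 0 of 5 were called higher. Among all 12291 genes tested, 34.2% were called changed, 19.9% lower (2445 genes) and 14.4% higher (1764 genes), a split that became 1992 lower and 2908 higher when libraries were scaled to the same median. The share of genes called lower depended on span: it was 70.7% of the 147 genes of at least 500 kb, 39.1% of the 1621 genes of 100 to 500 kb and 16.2% of the 10388 genes under 100 kb. Being called lower, as Nlgn1 and Nrxn3 were, was thus common in their span class. Libraries of homozygous and control cortex did not overlap for the same 2 members, with all homozygous values lower, against 25.6% of all genes tested. In homozygous against heterozygous cortex the same 2 of 5 members were called lower, where 32.8% of all genes were called changed and 18.2% lower. In heterozygous against control cortex 0 of 5 members and 0 of 12291 genes (0%) were called by limma, while 706 genes (5.74%) had an unadjusted p under 0.05.

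**Figure D1:**
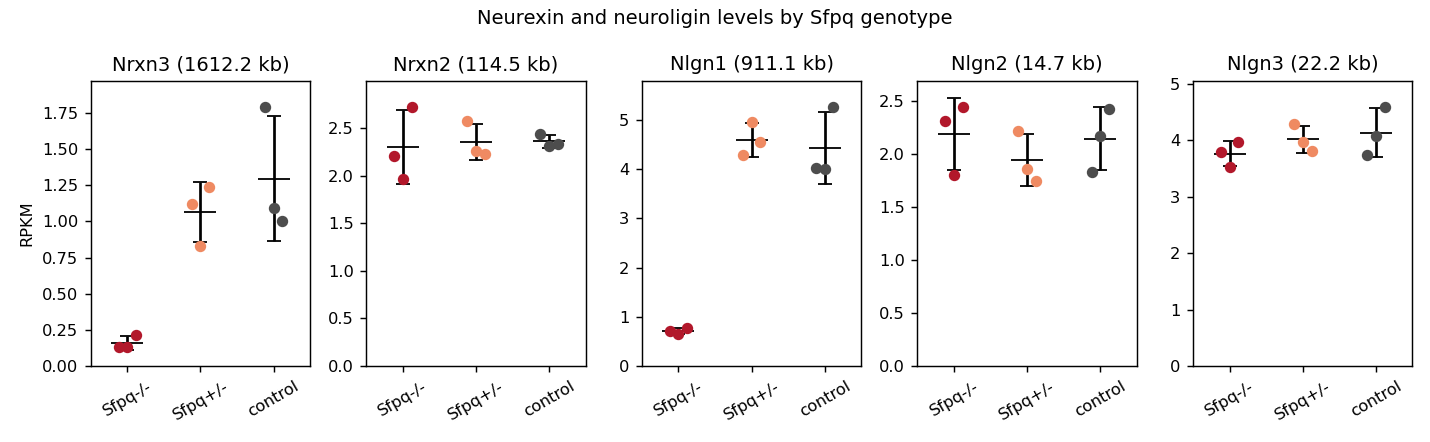
RPKM of each gene's highest transcript in every library (points), with the mean (horizontal line) and SD (bars) of 3 libraries per genotype. The panels have separate axes that start at 0, and the span of each gene stands in its title. The homozygous libraries lie far below the others for Nrxn3 (0.132 to 0.215 RPKM) and Nlgn1 (0.645 to 0.775 RPKM), and overlap the range of the others or lie on both sides of it for Nrxn2, Nlgn2 and Nlgn3.

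Nlgn1, the neuroligin of excitatory synapses, had the highest control mean of the 5 genes by its highest transcript, and fell in every homozygous library. Its transcript NM_001163387 had 0.718, 0.645 and 0.775 RPKM in the homozygous libraries, 4.28, 4.95 and 4.54 RPKM in the heterozygous libraries and 4.02, 4 and 5.26 RPKM in the control libraries. All homozygous values lay below all others, and heterozygous and control values overlapped. The means were 0.713 ± 0.0653 RPKM in homozygous and 4.43 ± 0.722 RPKM in control cortex (SD, n = 3 each), so that 16.1% of the control level remained. On the log2(RPKM + 0.5) scale the change was -2.02 ± 0.10 (SE, 95% interval -2.24 to -1.79), with a limma adjusted p of 1.62e-07. Against heterozygous cortex, at 4.59 ± 0.337 RPKM, the homozygous level was 15.5% (log2 change -2.07 ± 0.10, limma adjusted p = 1.59e-07). Heterozygous cortex held 104% of the control level, with an interval of the log2 change of -0.18 to 0.28 (limma adjusted p = 0.996). Within the class of genes of at least 500 kb, whose median log2 change was -0.68, 4 of 147 genes had a lower log2 change than Nlgn1. The homozygous values rest on an estimated 340 to 451 reads per library, and the control values on 2122 to 2696 reads.

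The other listed Nlgn1 transcript, NM_138666, which holds the 60-base exon printed above, had 0.674, 0.61 and 0.734 RPKM in homozygous, 3.71, 4.22 and 3.86 RPKM in heterozygous and 3.45, 3.44 and 4.43 RPKM in control cortex. It too lay below all others in every homozygous library. Its level fell to 17.8% of control (log2 change -1.86 ± 0.10, limma adjusted p = 1.05e-07 over 17725 transcripts, of which 20.4% were called lower). Of the 3013 exonic bases of NM_001163387, 98.6% also lie in NM_138666, so the 2 values are not independent. Of the 11807 exonic bases of NM_138666, only 25.2% lie in NM_001163387, so the transcripts differ by far more than the 60-base exon. The ratio of NM_138666 to NM_001163387 was 94.4% ± 0.445 in homozygous, 85.7% ± 0.883 in heterozygous and 85.3% ± 0.995 in control cortex (SD, n = 3 each). The homozygous ratios, 93.9% to 94.7%, lay above every control ratio, 84.1% to 86%. The exact permutation test gave p = 0.1 (two-sided), the smallest that 3 against 3 libraries allow. RPKM of whole transcripts do not show whether the 60-base exon itself was used more or less.

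Nrxn3, a neurexin with many alternative exons, was the least abundant of the 5 genes in all genotypes. Its transcript NM_172544 had 0.132, 0.132 and 0.215 RPKM in homozygous, 1.12, 0.833 and 1.24 RPKM in heterozygous and 1.79, 1.09 and 1 RPKM in control libraries. Every homozygous value was below every other value, and the heterozygous and control libraries overlapped. Control library 1 stood above the other 2 controls. The homozygous mean, 0.160 ± 0.0478 RPKM, was 12.4% of the control mean, 1.29 ± 0.431 RPKM (SD, n = 3 each). The limma log2 change was -1.42 ± 0.15 (95% interval -1.76 to -1.08, adjusted p = 3.92e-05). At such low values the pseudocount of 0.5 shrinks the change, and with a pseudocount of 0.1 it was -2.40. Against heterozygous cortex, at 1.06 ± 0.21 RPKM, the homozygous level was 15% (log2 change -1.24 ± 0.15, limma adjusted p = 0.000111). Heterozygous cortex had 82.3% of the control level, and the interval of the log2 change ran from -0.52 to 0.16 (limma adjusted p = 0.978). Without control library 1 that log2 change was 0.01, and the homozygous change against control was -1.23. In the class of at least 500 kb, 19 of 147 genes had a lower log2 change than Nrxn3. The values correspond to an estimated 102, 107 and 192 reads in homozygous and 1450, 1026 and 789 reads in control libraries.

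All 3 Nrxn3 transcripts were low in homozygous cortex. They share reads, as 92.5% of the exonic bases of NM_172544 also lie in NM_001198587, so the values do not show a fall from each start separately. NM_001198587 had 0.178, 0.144 and 0.235 RPKM in homozygous, 1.08, 0.797 and 1.23 RPKM in heterozygous and 1.73, 1.04 and 0.948 RPKM in control cortex. The homozygous libraries again lay below all others, at 15% of the control mean (log2 change -1.32 ± 0.16, limma adjusted p = 5.29e-05). The short NM_001252074, with 7 exons over 521.0 kb, had 0.142, 0.0866 and 0.193 RPKM in homozygous, 0.558, 0.454 and 0.754 RPKM in heterozygous and 0.866, 0.57 and 0.623 RPKM in control cortex. Its homozygous libraries lay below all others too, and its homozygous level was 20.5% of control and 23.9% of heterozygous. Its mean of 0.472 RPKM is below the minimum of 0.5 RPKM for limma, and the two-sided exact permutation test gave p = 0.1, the smallest possible.

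The ratio of the short transcript to NM_172544, which spans 1379.7 kb, was then compared between genotypes. NM_001252074 stood at 108%, 65.4% and 89.8% of NM_172544 in homozygous libraries and at 48.4%, 52.3% and 62.2% in control libraries. The lowest homozygous ratio was above the highest control ratio (exact permutation p = 0.1, the smallest possible). Relative to NM_001198587 the ratio was 74.0% ± 12 in homozygous and 56.9% ± 7.97 in control cortex (SD, n = 3 each), and these groups overlapped (exact permutation p = 0.2). Of its exonic bases, 48.8% are shared with NM_172544 and 68.1% with NM_001198587, and the homozygous values of NM_001252074 rest on an estimated 55 to 136 reads.

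**Figure D2:**
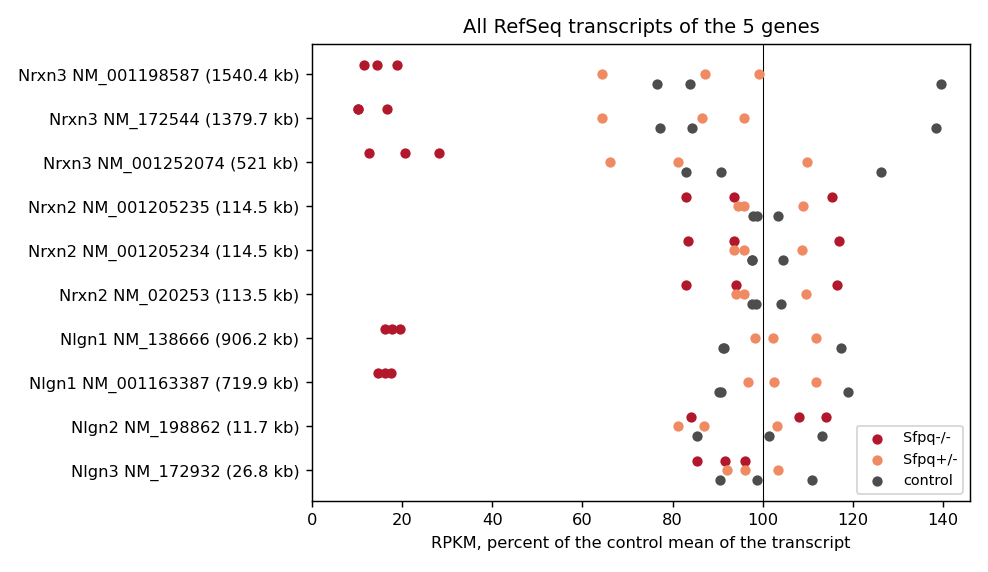
RPKM of all 10 RefSeq transcripts in every library, as percent of the transcript's own control mean (vertical line at 100), with the transcript's span in GENCODE M21 beside its name. The homozygous libraries (red) of the 3 Nrxn3 and 2 Nlgn1 transcripts lie far left of the heterozygous (orange) and control (grey) libraries, and those of the other 5 transcripts are not set apart on one side of them.

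Nrxn2, the shorter neurexin paralog, had similar levels in all 3 genotypes. NM_001205235 had 2.21, 1.96 and 2.72 RPKM in homozygous, 2.57, 2.26 and 2.23 RPKM in heterozygous and 2.44, 2.31 and 2.33 RPKM in control cortex. The homozygous libraries included both the lowest and the highest value of the 9. The log2 change in homozygous against control cortex was -0.04 ± 0.10, with an interval of -0.26 to 0.18 (limma adjusted p = 0.809), and its sign turned with the scaling of the libraries. In heterozygous against control cortex the interval was -0.22 to 0.22 (limma adjusted p = 0.999). NM_020253 and NM_001205234, which carry the 24-base exon, were at 97.7% and 97.9% of control in homozygous cortex. In the class of 100 to 500 kb, to which Nrxn2 belongs, the median log2 change was -0.12, and 60.7% of the 1621 genes had a lower log2 change than Nrxn2.

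Nlgn2, the neuroligin of inhibitory synapses and the shortest of the genes, also overlapped between genotypes. It had 2.31, 1.8 and 2.44 RPKM in homozygous, 2.21, 1.86 and 1.74 RPKM in heterozygous and 1.83, 2.17 and 2.42 RPKM in control cortex. No genotype stood apart. The log2 change was 0.02 ± 0.12 in homozygous against control cortex (interval -0.24 to 0.28, limma adjusted p = 0.92), and its sign depended on the library left out. It was -0.12 ± 0.12 in heterozygous against control cortex (interval -0.38 to 0.15, limma adjusted p = 0.981).

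Nlgn3, which acts at both kinds of synapse, had 3.79, 3.53 and 3.97 RPKM in homozygous, 4.28, 3.97 and 3.81 RPKM in heterozygous and 3.74, 4.08 and 4.59 RPKM in control cortex. The groups overlapped, and the homozygous mean was 91% of the control mean. The log2 change was -0.12 ± 0.08 (interval -0.30 to 0.07, limma adjusted p = 0.318). Nlgn3 is X-linked, and the genotypes differed in sex, which was read for each library from Xist and Y-linked genes. The homozygous libraries were 1 female and 2 male, the heterozygous 3 male and the control 2 female and 1 male. With sex in the model the log2 change was -0.15 (limma adjusted p = 0.208). Of the Nlgn3 exons in GENCODE, 3763 bases are also exonic in Gm21986, a processed transcript that GENCODE places on the same strand. The GENCODE transcript of Nlgn3 spans 26.8 kb and the RefSeq gene 22.2 kb, so some shared bases may lie outside the transcript that was measured. The Nlgn3 value is uncertain because reads of Nlgn3 and Gm21986 cannot be told apart here. Antisense or unclassified genes also share exonic bases on the opposite strand with Nlgn1 (1229 bases, A830092H15Rik), Nrxn3 (439 bases, Gm37980) and Nrxn2 (207 bases, Gm14964), and the sources used here do not say whether the counting used the strand.

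**Figure D3:**
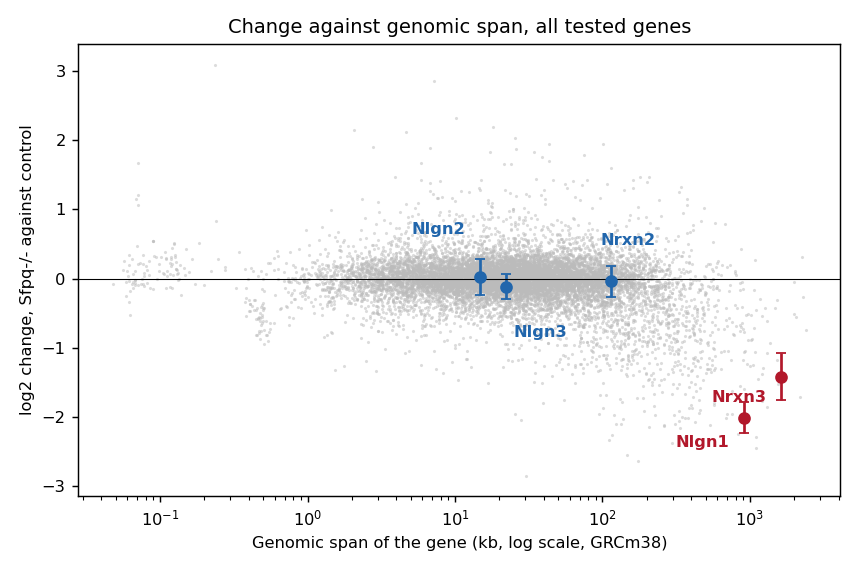
Log2 change in homozygous against control cortex, on the log2(RPKM + 0.5) scale, against the genomic span of each tested gene (grey, log axis), with the 5 genes and their 95% intervals in red where called and in blue where not. Nlgn1 at -2.02 and Nrxn3 at -1.42 lie in the region of long genes with lower levels, and Nrxn2, Nlgn2 and Nlgn3 lie close to 0.

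The paralogs were then compared within each library, by the difference of their log2(RPKM + 0.5) values, which largely removes what scales both genes of a library alike. Nrxn3 minus Nrxn2 was -2.10, -1.96 and -2.17 in homozygous, -0.92, -1.05 and -0.65 in heterozygous and -0.36, -0.82 and -0.91 in control libraries. The homozygous differences did not overlap the others, and the mean difference between homozygous and control cortex was -1.38. Nlgn1 minus Nlgn2 was -1.21, -1.0 and -1.20 in homozygous, 0.82, 1.21 and 1.17 in heterozygous and 0.96, 0.75 and 0.98 in control libraries. Nlgn1 was thus above Nlgn2 in every heterozygous and control library and below it in every homozygous library. Nlgn1 minus Nlgn3 was -1.82, -1.82 and -1.81 in homozygous, -0.00, 0.28 and 0.23 in heterozygous and 0.09, -0.02 and 0.18 in control libraries. These 2 genes were close together in control cortex and far apart in homozygous cortex. Between the short paralogs, Nlgn2 minus Nlgn3 was -0.61, -0.81 and -0.61 in homozygous, -0.82, -0.92 and -0.94 in heterozygous and -0.86, -0.78 and -0.80 in control libraries. The mean shift was 0.14 between homozygous and control cortex, with overlapping groups (exact permutation p = 0.3). Between homozygous and heterozygous cortex it was 0.22, without overlap (exact permutation p = 0.1, the smallest possible). For each of the 3 long against short pairs, homozygous against control gave an exact two-sided permutation p of 0.1, the smallest that the design allows, and 0.171 after adjustment over 12 tests (4 pairs in 3 comparisons). In heterozygous against control cortex the Nrxn3 minus Nrxn2 difference changed by -0.18 (exact permutation p = 0.5) and the Nlgn1 minus Nlgn2 difference by 0.17 (p = 0.3).

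**Figure D4:**
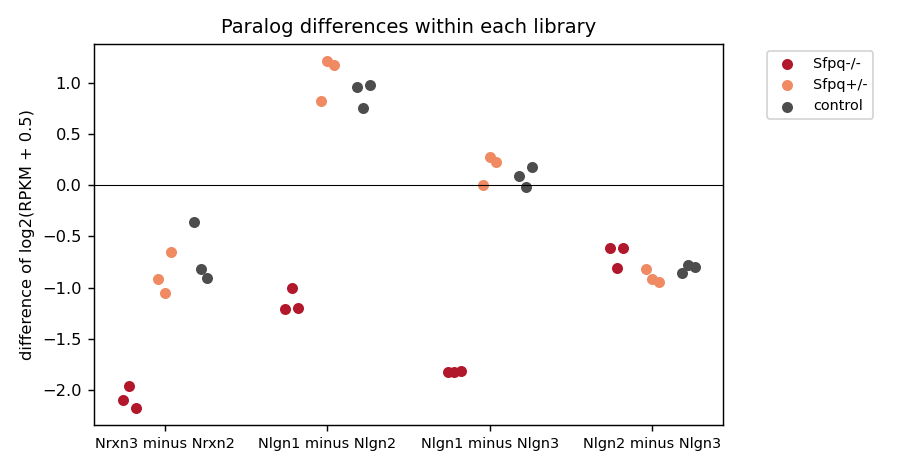
Difference of log2(RPKM + 0.5) between paralogs in every library, for homozygous (red), heterozygous (orange) and control (grey) cortex. In the 3 pairs that set a long gene against a shorter one, the homozygous libraries lie below all others, and in Nlgn2 minus Nlgn3 all differences lie between -0.94 and -0.61.

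The order of the levels changed accordingly. RPKM is per length of transcript, so genes can be compared within a library, but only roughly, because the authors' lengths are not known. In homozygous cortex the order was Nlgn3 (3.76 RPKM), Nrxn2 (2.30), Nlgn2 (2.18), Nlgn1 (0.713) and Nrxn3 (0.160). Nrxn2 and Nlgn2 overlapped there and the other neighbours did not. In heterozygous cortex it was Nlgn1 (4.59 RPKM), Nlgn3 (4.02), Nrxn2 (2.35), Nlgn2 (1.94) and Nrxn3 (1.06). The lowest Nlgn1 and the highest Nlgn3 library there were both at 4.28 RPKM, and the other neighbours did not overlap. In control cortex the same order held, with Nlgn1 (4.43 RPKM), Nlgn3 (4.14), Nrxn2 (2.36), Nlgn2 (2.14) and Nrxn3 (1.29). There Nlgn1 and Nlgn3 overlapped over their 3 libraries, as did Nrxn2 and Nlgn2. By its other transcript, NM_138666, Nlgn1 stood below Nlgn3, with 3.77 RPKM in control and 3.93 RPKM in heterozygous cortex. All 5 genes were of low abundance: 14.5% (Nrxn3) to 39.5% (Nlgn1) of the genes tested had a lower control level.

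Summed over the 3 neuroligins, the level was 6.66 ± 0.62 RPKM in homozygous, 10.5 ± 0.396 RPKM in heterozygous and 10.7 ± 1.4 RPKM in control cortex (SD, n = 3 each). Nlgn1 made up 10.5%, 10.8% and 10.8% of this sum in homozygous libraries, 39.8%, 45.9% and 45% in heterozygous libraries and 41.9%, 39% and 42.9% in control libraries. Its share was thus nearly the same in the 3 homozygous libraries and far below that of the others (exact permutation p = 0.1, the smallest possible). Nlgn3 made up 56.7% ± 2.15 of the sum in homozygous and 38.7% ± 1.21 in control cortex, and Nlgn2 32.6% ± 2.23 in homozygous and 20% ± 1.08 in control cortex (SD, n = 3 each). The sum was smaller in homozygous cortex, and the levels of Nlgn2 and Nlgn3 themselves did not pass the test. Of the summed Nrxn2 and Nrxn3 level, Nrxn3 made up 6.42% ± 0.854 in homozygous, 31.0% ± 4.43 in heterozygous and 34.8% ± 6.58 in control cortex. That sum was 2.46 ± 0.432 RPKM in homozygous, 3.42 ± 0.3 RPKM in heterozygous and 3.65 ± 0.497 RPKM in control cortex.

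**Figure D5:**
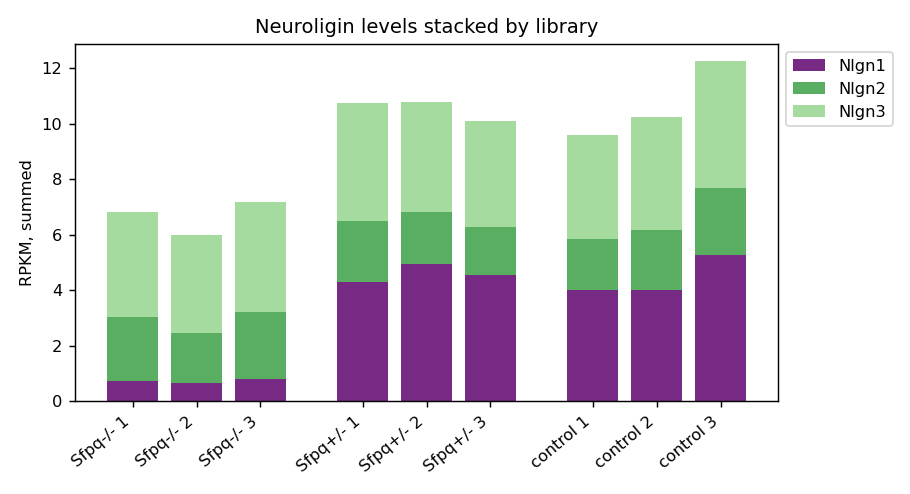
RPKM of Nlgn1, Nlgn2 and Nlgn3 stacked for each of the 9 libraries. The stacks reach 5.98 to 7.19 RPKM in homozygous, 10.1 to 10.8 RPKM in heterozygous and 9.6 to 12.3 RPKM in control cortex, and the lowest segment, Nlgn1, is thinnest in homozygous cortex.

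The cortex is a mixture of cells, and in such samples fewer cells of a type and less RNA per cell cannot be told apart. Marker lists of 11 cell types were therefore read beside the members in homozygous against control cortex. Of the 19 neuron markers tested, 2 were called lower and 5 higher, with a median log2 change of 0.01, against -0.01 over all genes. Over all genes 19.9% were called lower and 14.4% higher. Radial glia markers gave 4 lower and 1 higher of 12. Intermediate progenitor markers gave 4 lower and 1 higher of 10, and their sum was 141 to 149 RPKM in homozygous and 202 to 247 RPKM in control cortex, without overlap. Cajal-Retzius markers gave 5 higher of 7, with sums of 54.7 to 66.2 RPKM in homozygous and 38.2 to 43.5 RPKM in control cortex, and microglia markers 5 higher of 10, with sums of 21.2 to 29 RPKM in homozygous and 16.1 to 18.1 RPKM in control cortex. The sums of the radial glia, intermediate progenitor, Cajal-Retzius and microglia lists thus moved with the genotype, as Nlgn1 and Nrxn3 did. Their part in the result was not tested. Such sums follow their most abundant genes, and the genes of a list did not all move alike. Of the radial glia markers, Fabp7 fell from 995 RPKM in control to 736 RPKM in homozygous cortex, and Vim rose from 565 to 701 RPKM. The median log2 change of the radial glia list was -0.08. Of the Cajal-Retzius markers, Reln (log2 change -0.16) and Trp73 (-0.05) were not called. Erythroid markers gave 2 lower of 6 and meningeal and pericyte markers 1 higher of 7, while endothelial (8 tested), choroid plexus (4) and oligodendrocyte lineage markers (2) gave 0 calls. Their sums overlapped between homozygous and control cortex. GABAergic neuron markers gave 1 lower and 1 higher of 7, and their sum was 12.8, 10.3 and 15.7 RPKM in homozygous, 16.7, 12 and 12.7 RPKM in heterozygous and 18.7, 11.6 and 10.1 RPKM in control cortex. Control library 1 was the highest control both for this sum and for Nrxn3. In heterozygous cortex the sum was highest in library 1 (16.7 RPKM) and Nrxn3 in library 3 (1.24 RPKM). A link between the 2 was not tested. Of these marker genes, 0 were at 0 in every library.

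Ligands and partners of the 2 families were also read, from lists chosen with earlier results of these data known. Of 14 extracellular neurexin ligands tested, of 16 listed, 2 were called lower and 6 higher, where 19.9% of all genes were lower and 14.4% higher. Their median log2 change was 0.24, against -0.01 over all genes. Of the 3 ligand genes of at least 100 kb 2 were lower, and of the 11 shorter ones 6 were higher. Over all genes the share lower was 39.1% at 100 to 500 kb and 70.7% above that. Nxph1, a neurexophilin that binds alpha-neurexins and spans 301 kb, had 0.283 ± 0.127 RPKM in homozygous and 1.75 ± 0.27 RPKM in control cortex (log2 change -1.53 ± 0.14, limma adjusted p = 1.23e-05). Lrrtm4, a postsynaptic neurexin ligand over 791 kb, changed by -0.38 (limma adjusted p = 0.00411). Cbln4, a secreted cerebellin that bridges neurexins to postsynaptic receptors, rose to 1.91 ± 0.172 RPKM in homozygous cortex, against 0.527 ± 0.0193 RPKM in control cortex (log2 change 1.23 ± 0.09, limma adjusted p = 1.32e-06). Cbln1 (0.55), Lrrtm2 (0.41) and Nxph4 (0.38) also rose on the log2 scale (limma adjusted p of 0.00735, 0.0127 and 0.0124).

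Cytoplasmic neurexin partners gave 5 lower and 1 higher of 9 tested, with a median log2 change of -0.28. Over all genes 19.9% were lower and 14.4% higher. All 5 of at least 100 kb were called lower, among them Syt1 over 513 kb, where the share lower was 39.1% of genes of 100 to 500 kb and 70.7% of longer ones. The largest change was that of Apba2, a Mint adaptor, with 6.06 ± 0.526 RPKM in homozygous and 20 ± 2.77 RPKM in control cortex (log2 change -1.64 ± 0.10, limma adjusted p = 4.82e-07). Syt1, the calcium sensor of vesicle release, changed by -0.94, Apba1 by -0.60, Lin7a by -0.51 and Cask, the kinase-like scaffold that binds neurexin tails, by -0.28. Sdcbp, or syntenin, at 30.4 kb was the member that rose (log2 change 0.33, limma adjusted p = 0.000475).

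On the neuroligin side, scaffolds of excitatory and inhibitory postsynapses gave 3 lower and 3 higher of 13 tested, near the shares over all genes (19.9% lower and 14.4% higher), with a median of -0.03. Gphn, which encodes gephyrin, the scaffold of inhibitory synapses that binds Nlgn2, spans 467 kb and had 3.95 ± 0.285 RPKM in homozygous and 9.33 ± 0.51 RPKM in control cortex (log2 change -1.14 ± 0.07, limma adjusted p = 8.04e-07). Magi2 (-0.43), over 1485 kb, and Lhfpl4 (-0.36), over 27.3 kb, also fell, and Dlgap3 (0.77), Magi1 (0.26) and Dlg1 (0.23) rose on the log2 scale. Of the 9 scaffold genes of at least 100 kb, 2 were lower and 2 higher in homozygous against control cortex. In that comparison the share lower over all genes was 39.1% at 100 to 500 kb and 70.7% above that. In homozygous against heterozygous cortex 4 of these scaffold genes were lower and 2 higher, where 32.8% of all genes were called changed and 18.2% lower. Shares by span are not given for that comparison. Of 5 genes that shed or block neuroligins or otherwise act on them, 0 were lower and 2 higher: Thbs1 (0.52, limma adjusted p = 0.00386) and Mdga1 (0.50, limma adjusted p = 0.00671), which blocks the binding of neuroligins to neurexins.

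Splicing regulators known to act on neurexin exons gave 5 lower and 0 higher of 9 tested, with a median log2 change of -0.30, where 19.9% of all genes were lower. Of the 6 of at least 100 kb, 4 were lower, and the share lower over all genes was 39.1% at 100 to 500 kb and 70.7% above that. Khdrbs2, or Slm1, one of the proteins that control neurexin splicing in neurons, spans 533 kb and had 1.77 ± 0.198 RPKM in homozygous and 9.36 ± 0.546 RPKM in control cortex (log2 change -2.12 ± 0.09, limma adjusted p = 3.33e-08). Rbfox3, or NeuN, had 0.149 ± 0.0462 RPKM in homozygous and 1.38 ± 0.277 RPKM in control cortex (log2 change -1.53 ± 0.14, limma adjusted p = 9.47e-06). Nova1 changed by -0.48, Ptbp2 by -0.39 and Khdrbs3 by -0.28. Khdrbs1, or Sam68, did not pass the test (-0.14, limma adjusted p = 0.107). Use of the neurexin exons printed above was not measured, since the files hold no exon values.

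Other synaptic organizers, which act beside the neurexin system, gave 8 lower and 1 higher of 15 tested, with a median log2 change of -0.28, where 19.9% of all genes were lower and 14.4% higher. All 4 of at least 100 kb were lower, and of the 11 shorter ones 4 were lower and 1 was higher. Over all genes the share lower was 70.7% at 500 kb and over, 39.1% at 100 to 500 kb and 16.2% under 100 kb. Lrrc4c, the netrin-G ligand NGL-1, spans 1314 kb and had 0.856 ± 0.0852 RPKM in homozygous and 4.49 ± 1.06 RPKM in control cortex (log2 change -1.86 ± 0.13, limma adjusted p = 1.6e-06). Lrfn5, a SALM adhesion protein, changed by -1.32. Of the short genes, Slitrk4 (-0.45), Slitrk5 (-0.38) and Slitrk2 (-0.33) fell and Lrrc4 (0.39) rose. In heterozygous against control cortex 0 genes of all 6 partner lists were called by limma.

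For each member the genes with the most similar profile over the 9 libraries were listed, among the 10925 or 10926 genes whose mean reached 1 RPKM. The measure was Pearson's r of log2(RPKM + 0.5). For Nlgn1 these were Astn1 (r = 0.9985), Ppm1e (0.9982) and Unc5d (0.9977), all over 100 kb in span. Unc5d had 0.0833 RPKM in homozygous and 1.6 RPKM in control cortex. For Nrxn3 they were Galk2 (r = 0.9845), Ankrd10 (0.9800) and Nlk (0.9776), which span 125 kb, 24.3 kb and 130.4 kb, with log2 changes of -0.97, -0.43 and -0.73 in homozygous against control cortex. Because the homozygous libraries of these genes stand apart from the other 6, r mostly follows that gap. Nrxn2 was most like Ppp2r5b (r = 0.9495), Stmn3 (0.9414) and Mfhas1 (0.9345). Nlgn2 was most like Trmt112 (0.9680), B4galnt4 (0.9564) and R3hcc1 (0.9560), and Nlgn3 most like Rtf2 (0.9875), Trpt1 (0.9664) and Stx6 (0.9585). These are the highest r of 10925 genes over only 9 libraries, and whether unrelated genes would reach as high was not tested.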

How the data were processed

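The tables that the authors deposited hold RPKM values (reads per kilobase of transcript per 1e6 reads), 1 table a library with 30978 RefSeq transcripts. The submitters' processing notes name CASAVA 1.8.2, TopHat 1.4.1 and the build mm9. The sources used here do not name the program behind the RPKM values, its annotation, or its handling of strand and of reads with several hits. Per the labels' protocols, RNA was treated with Ribo-Zero and libraries kept the strand.

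Transcripts were named from RefSeq (30507) and GENCODE M21 (178), and 293 had no name. Gene spans are those of RefSeq on GRCm38.p6, transcript spans and exons those of GENCODE M21. The files give no counts. Steps between low values gave the estimated depth (of the values that come to fewer than 5 reads, 68.6% to 72.1% were whole within 0.1 read), which is approximate because the authors' lengths are not known, and no count test was run.

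All 9 libraries were fitted with limma 3.58.1 in R 4.3.3 (trend, log2(RPKM + 0.5), mean of at least 0.5 RPKM, 1 transcript per gene), and genes were called at a Benjamini-Hochberg adjusted p under 0.05 over 12291 genes. The 12291 genes include some with no span in the table. The fit was tested on simulated data. Single values and paralog differences were tested with two-sided exact permutation tests. Replicates are embryos. Alternatives were other pseudocounts, filters, transcripts, scalings, samples in the fit, sex, a replicate block, no trend and leaving out each library.

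The members and lists were chosen with earlier results of these data known, and the lists name 184 genes, 182 of them found. Named are the members, Sfpq, from each partner list at most 6 genes, ranked by adjusted p between homozygous and control cortex, and the 3 genes most like each member. Fabp7, Vim, Reln and Trp73 are named as well, to show differences within their marker lists.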

Additional observations from a re-analysis of the deposited data

How the results depend on the processing

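Nlgn1 and Nrxn3 kept their direction and call in homozygous against control and in homozygous against heterozygous cortex under every alternative that gave a value. For Nlgn1 the log2 change against control ranged from -2.47 to -1.66 (highest limma adjusted p 1.67e-05), and for Nrxn3 from -2.40 with a pseudocount of 0.1 to -0.97 with a pseudocount of 1 (highest limma adjusted p 0.000679). Nrxn3 gave no value with a minimum of 2 RPKM. Nrxn2, Nlgn2 and Nlgn3 passed the threshold under none of the alternatives, and no member did so in heterozygous against control cortex.

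Signs of uncalled changes turned. For Nrxn2, quantile normalization gave 0.02 against control and 0.01 against heterozygous cortex in homozygous cortex, and 0.00346 in heterozygous against control cortex. Scaling to the same median gave 0.02 for Nrxn2 in homozygous cortex against either group and 0.00302 in heterozygous against control cortex. For Nlgn1 in heterozygous cortex, sex in the model gave -0.06. Leaving out single libraries gave, in homozygous against control cortex, -0.14 to 0.05 for Nrxn2 and -0.07 to 0.13 for Nlgn2. It gave -0.14 to 0.05 for Nrxn2 in homozygous against heterozygous cortex. In heterozygous against control cortex it gave -0.06 to 0.03 for Nrxn2, -0.30 to 0.01 for Nrxn3, -0.01 to 0.17 for Nlgn1 and -0.10 to 0.04 for Nlgn3. The cause of these turns was not tested.

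Scaling to the same median moved the calls over all genes. In homozygous against control cortex 2908 genes were higher and 1992 lower, against 1764 higher and 2445 lower without it, and in homozygous against heterozygous cortex 2877 higher and 1846 lower, against 1788 higher and 2243 lower. In heterozygous against control cortex 1 gene was lower when only those groups were fitted, and 0 to 1 when single libraries were left out.

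Whether the replicate numbers pair the samples is not settled by the values. Same-numbered libraries correlated between -0.0437 and 0.404 in their deviations over 9 pairs, 2 of them over 0.1. These 2 were control with homozygous library 1 (0.404) and control with homozygous library 3 (0.319). Crossed, control library 1 with homozygous library 3 gave -0.236, and control library 3 with homozygous library 1 gave -0.438. In all, 5 of 9 libraries correlated best with their own number. With the replicate block, 1913 genes were higher and 2554 lower in homozygous against control cortex, and no member's call changed (Nlgn1 -2.02, Nrxn3 -1.42).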
